A study of Mus musculus with 12 samples.

Results

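The Klf5 knockdown was described in 5 libraries, 3 from mouse embryos injected with siRNA against Klf5 (Klf5 KD) and 2 from embryos injected with the NT siRNA control, out of 12 RNA-seq libraries in the series. Libraries were assigned to these groups by their titles, and no measured value entered the choice. Each library held 10 pooled embryos collected at the 8-cell stage. Zygotes came from superovulated B6129F1 females aged 3-5 weeks mated with B6CBAF1 males, and none of the groups carried a genetic modification. At 8-9 hours post-fertilization (hpf) they received siRNA at 10 µM for Klf5 KD or 15 µM for the control, so the doses differed between the groups. H2B-EGFP, a fluorescent histone used as an injection marker, was co-injected at 150 ng/µl in every group and the embryos were cultured in KSOM medium. The other 7 libraries were Nr5a2 KD (n = 3, siRNA at 5 µM) and the double knockdown of Nr5a2 and Klf5 (dKD, n = 4, dose not given in the sources used here), and they serve here as a second setting in which Klf5 siRNA was given. The labels do not say whether the libraries of a group came from separate injection days, so the p-values measure the spread between these pools, which may be technical in part.

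KLF5 is a zinc-finger transcription factor of the Krüppel-like factor (KLF) family, whose members bind GC-rich and CACCC-type boxes through a shared DNA-binding domain. In the mouse embryo it is known for its part in both the trophectoderm (TE), which forms the placenta, and the inner cell mass (ICM). KLF2, KLF4 and KLF5 are known for overlapping functions in embryonic stem cells, KLF17 is a maternally supplied member, and KLF3 and the TGFβ-inducible KLF10 and KLF11 are best known as repressors. An siRNA lowers the mRNA of its target in the cytoplasm and leaves the gene intact.

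The depth was 7125468 and 7781886 counts on genes in the control libraries and 12560926, 8866530 and 7552156 in Klf5 KD replicates 1 to 3. Mitochondrially encoded RNA took 13.2% and 12.9% of the counts in the controls and 4.41%, 8.28% and 11.8% in Klf5 KD, and the ERCC spike-in took 0.398% and 0.459% against 0.215%, 0.238% and 0.378%. Both shares were lower in every Klf5 KD library than in either control (two-sided exact permutation test, p = 0.2 for each, smallest possible p 0.1), and replicate 1 stood furthest away. The injection marker was found in all 5 libraries, at 3.78 and 5.22 CPM (counts per library size, after TMM scaling) against 2.96, 7.90 and 7.62, and the groups overlapped. Of 10 genes used to check the labelled 8-cell stage, Dppa3, Tfap2c, Tead4 and Cdh1 were above 10 CPM in all 5 libraries, whereas Cdx2, a TE gene, stayed below 1 CPM. Pou5f1 ran from 7.91 to 18.7, Nanog from 6.10 to 12.7 and Gata3 from 2.42 to 10.5 CPM. Krt8 and Krt18 were lower, at 0.293 to 3.06 and 0.454 to 4.83 CPM. Of 20 ovarian follicle-cell genes, 7 had no count and 16 stayed below 1 CPM in all 5 libraries, and Amhr2 was highest at 10.6 to 20.3 CPM.

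The targeted mRNA was examined first. Klf5 (ENSMUSG00000005148, GRCm38 chr14:99298691-99315036) was at 443 and 466 CPM in the controls and at 72.7, 117 and 144 CPM in the Klf5 KD libraries. All 3 knockdown pools lay far below both controls, with a mean of 111 ± 35.9 CPM (SD, n = 3) against 454 ± 15.7 CPM (SD, n = 2), or 24.5% of the control level. In the edgeR quasi-likelihood test the log2 fold change was -2.03 ± 0.29 (SE), with an unadjusted p of 1.12e-05 and a Benjamini-Hochberg adjusted p of 0.0996 over 12838 genes tested. The exact permutation test on this gene alone gave p = 0.1, the smallest value that 3 against 2 libraries allow. DESeq2 gave an adjusted p of 6.62e-07 for Klf5. Klf5 was at 150, 158 and 109 CPM after Nr5a2 siRNA alone, and at 82.0, 59.8, 42.2 and 39.9 CPM in dKD. Every dKD pool was thus below every Nr5a2 KD pool (log2 fold change -1.31 ± 0.26, unadjusted p = 0.00027, edgeR adjusted p = 0.999), a comparison that shares no library with Klf5 KD against control.

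Across the transcriptome no gene was called between Klf5 KD and control at an edgeR adjusted p under 0.05 with a 2-fold change. This was 0% of 12838 genes in either direction, and the targeted Klf5 was itself not called. Thus 0 calls from 3 against 2 libraries does not show that other genes were unchanged. At an unadjusted p under 0.05 there were 599 lower genes (4.67%) and 488 higher genes (3.8%), 1087 in all. DESeq2 called 42 lower genes (0.327%) and 8 higher genes (0.0623%). The 2 groups did not overlap for 1840 genes that were lower in Klf5 KD (14.3%) and 1620 that were higher (12.6%), and the median log2 fold change over all genes was 0.00. One library decided part of the edgeR count: without Klf5 KD replicate 3, the pool with the least reduced Klf5, 15 lower genes and 1 higher gene were called. Kdelr3 was the 1 gene called without control replicate 1, and Gm26531 the 1 called without control replicate 2. Because these were pools of whole embryos, fewer cells expressing a gene and less RNA per cell cannot be told apart.

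**Figure D1:**
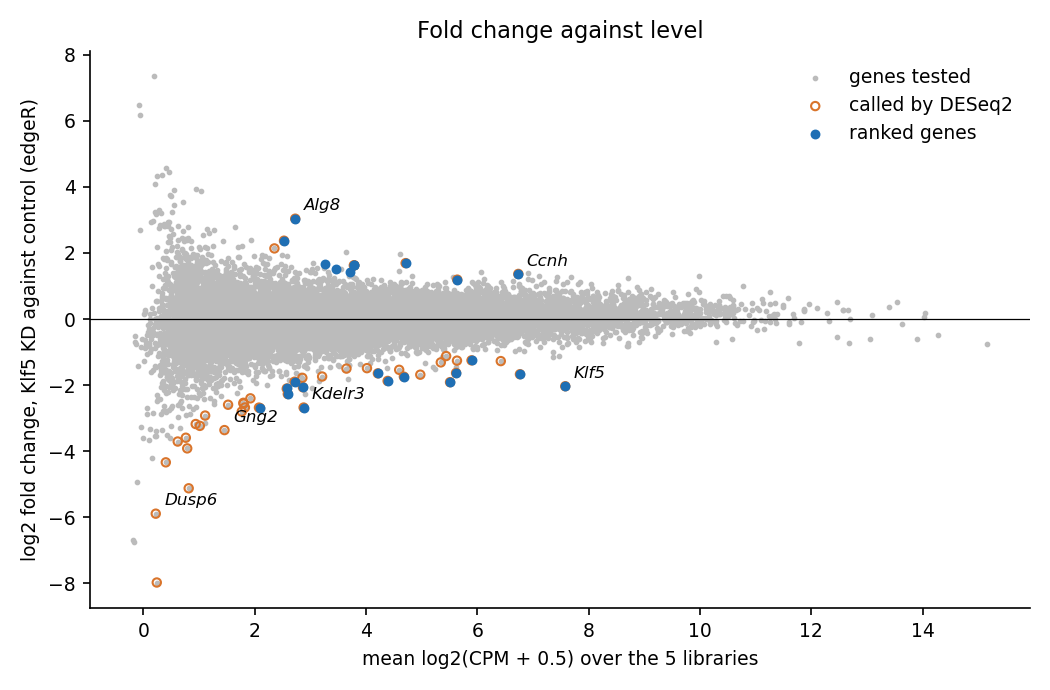
Log2 fold change of Klf5 KD against control (edgeR, vertical axis) plotted against the mean log2(CPM + 0.5) over the 5 libraries (horizontal axis) for 12838 genes, with the 24 ranked genes filled and the 50 genes called by DESeq2 circled. Klf5 lies at -2.03 among the well expressed genes, and the genes furthest below 0, such as Dusp6, lie at the low end of expression.

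To describe the strongest differences, genes were ranked by unadjusted p among those with a 2-fold change, a mean of at least 10 CPM in the higher group and no overlap between the groups. These criteria were met by 119 lower and 86 higher genes, and the first 14 and 10 are described as the ranked genes. Since the ranking used this comparison, the values below describe it and test nothing. Edges of the lists were close: the last named lower gene had an unadjusted p of 0.000454 and the last named higher gene 0.00234.

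Behind Klf5, the lower genes were led by Spink2, a Kazal-type protease inhibitor (chr5:77205107-77211471), which was at 97.99 and 105 CPM in the controls and 18.3, 28.1 and 34.9 CPM in Klf5 KD (log2 fold change -1.91 ± 0.30, edgeR adjusted p = 0.0996). The 3 knockdown pools were close together and well below the controls. Calm5, a calmodulin-like gene (chr13:3854173-3854761), was at 38.3 and 51.4 against 9.79, 13.1 and 13.9 CPM (-1.87 ± 0.30, adjusted p = 0.0996). Kdelr3 (chr15:79516411-79527739), a receptor that returns proteins from the Golgi to the endoplasmic reticulum, was at 15.1 and 27.4 against 1.98, 3.06 and 5.13 CPM (-2.68 ± 0.44, adjusted p = 0.0996). Its controls differed from each other, but the lowest of them was still above every knockdown pool.

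Cdc42ep4 (chr11:113726850-113751881), an effector of the small GTPase CDC42 that shapes the actin cytoskeleton, was at 14.4 and 8.43 CPM in control and 1.71, 2.00 and 1.46 CPM in Klf5 KD (-2.70 ± 0.45, edgeR adjusted p = 0.0996). Prdm14 (chr1:13113457-13127163), a transcriptional regulator of pluripotency and germ cells, was at 18.9 and 13.1 against 3.86, 3.42 and 4.10 CPM (-2.07 ± 0.37, adjusted p = 0.127). In both genes the knockdown pools were closer to one another than the controls were. The KLF genes Klf11 and Klf3 stood in the same list and are described with their family. Eprn, a non-coding RNA gene (chr13:73344665-73347384), had the tightest values, 99.8 and 99.3 CPM in control and 39.7, 40.4 and 45.1 CPM in Klf5 KD (-1.25 ± 0.26, adjusted p = 0.201).

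The other lower genes were 4930522L14Rik, Gm48038, Txndc16, a thioredoxin-domain protein of the secretory pathway, Syde2, a GTPase-activating protein, and Shisal2b. 4930522L14Rik was the most abundant of them, at 241 and 204 CPM against 64.3, 48.4 and 97.0 CPM (-1.67 ± 0.31, edgeR adjusted p = 0.127). Shisal2b was at 90.4 and 109 against 20.6, 26.8 and 49.8 CPM, with replicate 3 nearest to the controls. Over all 14 lower genes the median log2 ratio to the control mean was -2.03, -1.94 and -1.58 in Klf5 KD replicates 1 to 3, and every gene was below 0 in every one of these libraries. All 14 were called by DESeq2. The values of Klf3, Kdelr3, Txndc16 and 4930522L14Rik include reads that the counting split with other genes in 1 to 3 of the 5 libraries.

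Among the higher genes, Alg8 (chr7:97371606-97392185), a glucosyltransferase that builds the sugar precursor of N-glycans, had the smallest p. It was at 2.57 and 1.07 CPM in control and 19.8, 6.72 and 17.7 CPM in Klf5 KD (3.04 ± 0.59, edgeR adjusted p = 0.142). Ccnh, encoding cyclin H of the CDK-activating kinase (chr13:85189408-85223469), was at 65.6 and 57.0 against 202, 142 and 126 CPM (1.36 ± 0.31, adjusted p = 0.228). Ccnh was the most abundant of these genes and its lowest knockdown pool was well above its highest control. Lrp2 (chr2:69424340-69586065), the endocytic receptor megalin, was at 2.72 and 1.34 against 14.6, 6.13 and 10.3 CPM (2.37 ± 0.54, adjusted p = 0.228).

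Fabp3, a fatty acid-binding protein gene, was at 26.8 and 34.0 CPM in control and 79.7, 68.5 and 58.9 CPM in Klf5 KD (1.19 ± 0.30, edgeR adjusted p = 0.308). Mbl2, a mannose-binding lectin, Plcg2, a phospholipase C, Zswim5 and Gm12183 were also among the higher genes. Their log2 fold changes ran from 1.42 for Gm12183 to 1.62 for Mbl2 and Plcg2, and they stayed below 25 CPM in all 5 libraries. DESeq2 called 7 of the 10 higher genes, and Zswim5 and Gm12183 were not among them. Part of the reads of Ccnh and Fabp3 was split with overlapping genes in 3 of the 5 libraries.

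**Figure D2:**
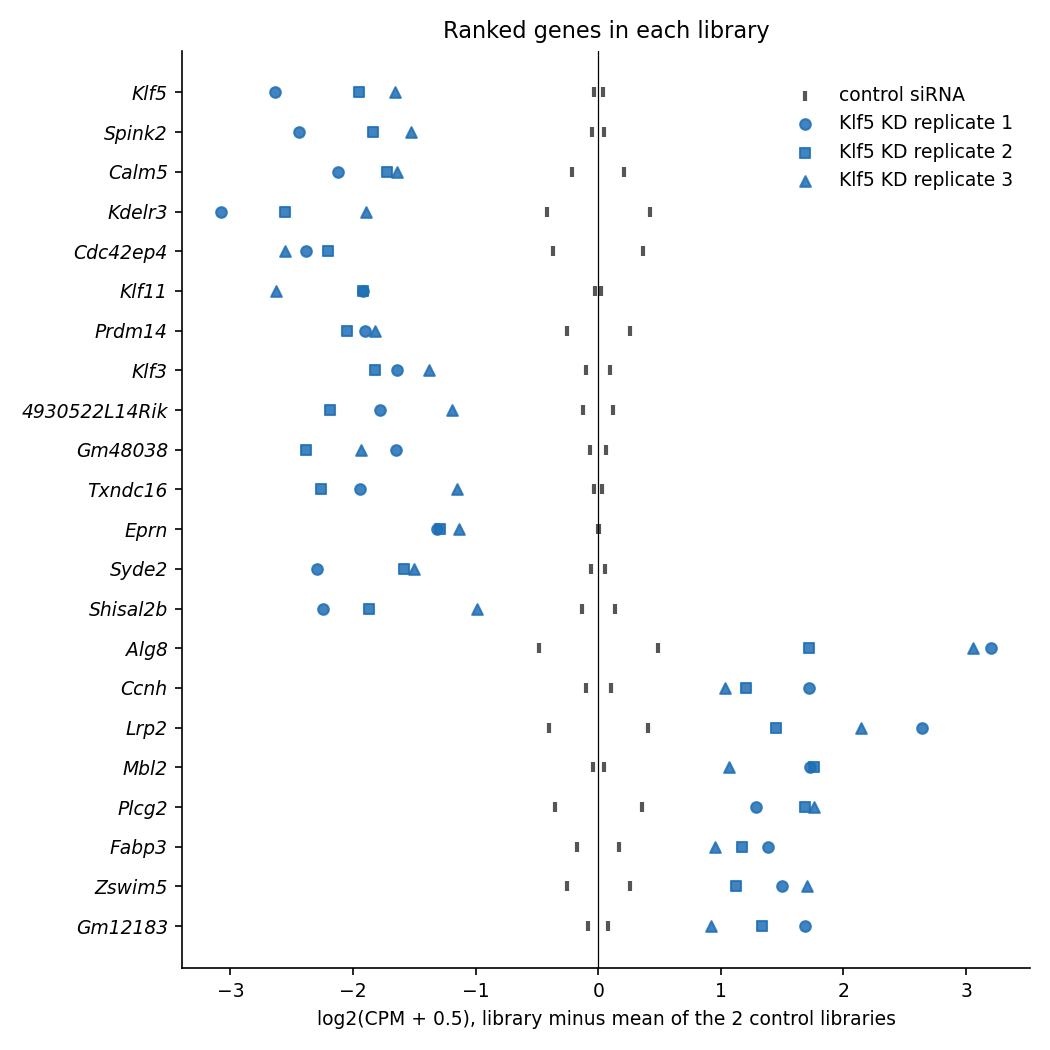
Ranked genes (22 of the 24, as rows) in each of the 5 libraries, as log2(CPM + 0.5) minus the mean of the 2 control libraries (horizontal axis). Bars are the controls, and circles, squares and triangles are Klf5 KD replicates 1, 2 and 3, which lie on one side of both controls for every gene, as the ranking required.

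The mitochondrial share moved with the groups, so the ranked genes were also fitted with it as a covariate and with each library left out. The 2 controls had nearly the same share and every Klf5 KD library lay below both. The slope on the share thus rests mostly on the 3 Klf5 KD libraries, and share and group can hardly be separated. Every fit with this covariate over the 5 libraries has this limit and leaves few degrees of freedom. All 14 lower genes stayed negative with the covariate, with a median of -1.49 against -1.90 without it, and 13 stayed at least 2-fold lower, Shisal2b being the exception at -0.92. The 10 higher genes stayed positive with a median of 1.15 against 1.62, and 6 remained at least 2-fold higher. Leaving out any 1 of the 5 libraries kept all 24 genes beyond 2-fold, from -3.08 to -1.22 for the lower and from 1.05 to 3.80 for the higher genes.

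Klf5 siRNA was also given on top of Nr5a2 siRNA, and dKD against Nr5a2 KD measures its effect there in 7 libraries that played no part in the ranking. Mitochondrially encoded RNA took 6.17% to 6.75% of the counts in Nr5a2 KD replicate 3 and dKD replicates 3 and 4 and 10.4% to 12.8% in the other 4. With this share as covariate edgeR called 1 gene in dKD against Nr5a2 KD, Klf5. In this comparison 251 of 13017 genes (1.93%) were lower and 196 (1.51%) higher at an unadjusted p under 0.05, and no overlap was seen for 310 lower (2.38%) and 306 higher (2.35%) genes. EdgeR called none of them after adjustment, 447 had an unadjusted p under 0.05 in either direction, and DESeq2 called 4. Of the 13 lower genes other than Klf5, 12 were tested and 11 were negative, with a median log2 fold change of -0.57, whereas 47.9% of the 11941 genes tested in both comparisons were negative with a median of 0.02. Txndc16 was the exception, at 0.42 ± 0.34.

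Spink2 was at 274, 305 and 135 CPM in Nr5a2 KD and 95.3, 197, 77.4 and 50.3 CPM in dKD (-1.18 ± 0.40, unadjusted p = 0.0117, edgeR adjusted p = 0.999). Its level after Nr5a2 siRNA was above that of the NT controls, and dKD replicate 2 overlapped with Nr5a2 KD. Shisal2b was at 173, 131 and 101.9 against 66.2, 84.4, 52.3 and 53.4 CPM (-1.08 ± 0.23, unadjusted p = 0.00059, adjusted p = 0.999), and Kdelr3 at 7.53, 10.2 and 9.40 against 5.80, 5.09, 3.77 and 5.18 CPM (-0.86 ± 0.30, unadjusted p = 0.0146, adjusted p = 0.999). In both genes every dKD pool lay below every Nr5a2 KD pool. Eprn was at -0.61 ± 0.25 (unadjusted p = 0.0307, adjusted p = 0.999). Together with Klf5 these were the 5 of 13 ranked lower genes with an unadjusted p under 0.05 in the same direction.

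The higher genes pointed the same way with smaller sizes. All 9 that were tested were positive in dKD against Nr5a2 KD, with a median of 0.33, against 52.1% positive among all genes. Gm12183 was the 1 with an unadjusted p under 0.05 (0.83 ± 0.34, unadjusted p = 0.0331, edgeR adjusted p = 0.999), at 14.7, 10.6 and 10.9 CPM in Nr5a2 KD and 13.1, 14.6, 23.2 and 34.3 CPM in dKD, and these groups overlapped. The replicate number was also used as a block, taken to pair these libraries although the labels do not say so. With this block, 7 of the 13 lower and 0 of the 9 higher genes had an unadjusted p under 0.05 in the same direction, where 3.49% of all genes were lower and 3.08% higher. Under it Klf5 had an edgeR adjusted p of 0.0708 and 1 of the 9 turned negative. Under this block Txndc16 was higher in dKD, at 0.64 with an unadjusted p of 0.00352 (edgeR adjusted p = 0.525), against the direction of the ranking.

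The same was counted over the 100 lower genes with the smallest p in Klf5 KD, Klf5 left out, a set that may include ranked genes and that holds only genes tested in both comparisons. Of these 73 were negative in dKD against Nr5a2 KD, where 47.9% of all genes were, with a median of -0.29, and 15 were lower at an unadjusted p under 0.05, where 1.93% of all genes were. Of the 100 higher genes chosen likewise 64 were positive, where 52.1% of all genes were, with a median of 0.15, and 5 were higher at an unadjusted p under 0.05, where 1.51% of all genes were. The difference between the Klf5 siRNA effects with and without Nr5a2 siRNA was fitted over all 12 libraries. EdgeR called no gene of 14830 for that difference, 715 had an unadjusted p under 0.05, and DESeq2 called 3.

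**Figure D3:**
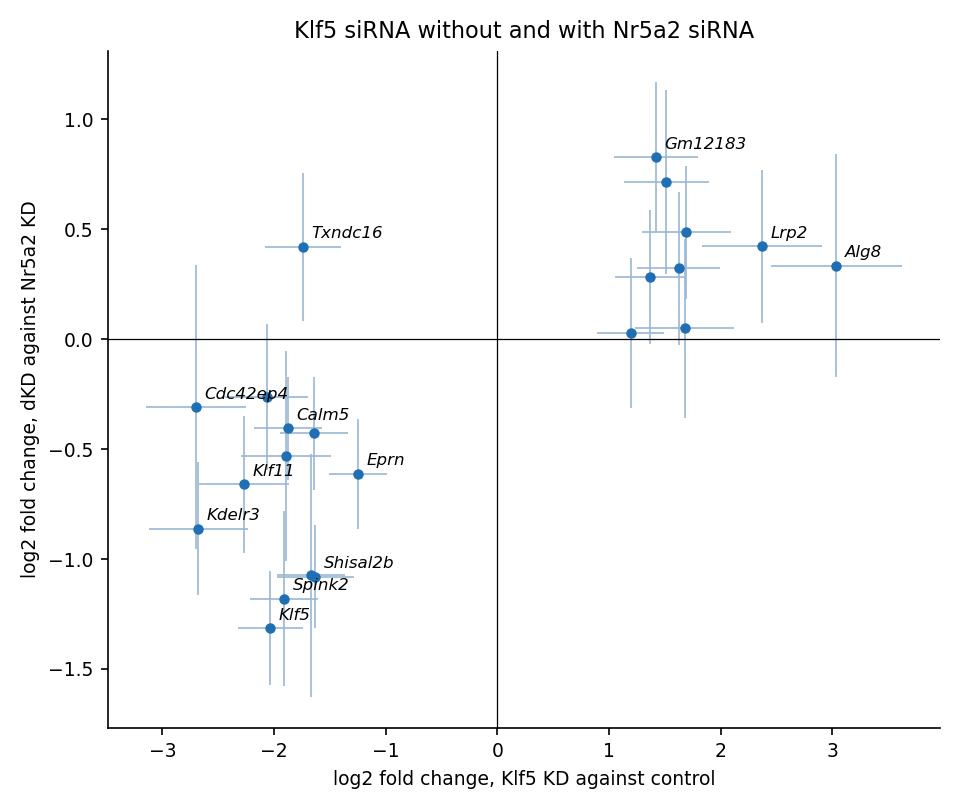
Log2 fold change of dKD against Nr5a2 KD (vertical axis) and of Klf5 KD against control (horizontal axis) for the 22 ranked genes tested in both, with standard errors from edgeR as bars. Most points lie in the lower left and upper right, nearer to 0 on the vertical axis than on the horizontal one, and Txndc16 lies in the upper left.

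The family of the targeted gene had the median furthest from 0 among the 21 lists in this fit, though not when Klf5 KD replicate 3 was left out (-0.92, against -1.03 for mitochondrially encoded mRNAs) or replicate 1 (-0.97, against 1.10 for Y-linked genes). Nor did it with the mitochondrial covariate (-1.08, against 1.99 for Y-linked genes) and with the replicate block (-0.93, against -1.08 for mitochondrially encoded mRNAs). With library sizes from the ERCC spike-in, which put the median of all genes at 0.66, the KLF median was -0.33, and those of Y-linked and 2-cell stage genes were 1.18 and 1.15. All lists and their members were chosen with earlier results of these data known, so their counts describe and test nothing. The KLF family was listed with 17 genes and 11 passed the filter on low counts. Among these 11, 7 were lower and 0 higher at an unadjusted p under 0.05, where 4.67% and 3.8% of all genes were. These 7 did not overlap between groups, where 14.3% of all genes were lower without overlap. With the mitochondrial share as covariate 5 were lower (Klf5, Klf3, Klf10, Klf11 and Klf13) and Klf4 was higher, and without Klf5 KD replicate 1 the 7 were lower and Klf4 was higher. Of all 12838 genes, 428 were lower and 300 higher by this measure with that covariate, and 553 and 377 without that replicate. These all-gene counts are also the background for the other lists below under the same alternatives. The median log2 fold change was -1.02, or -0.86 over the 10 tested members other than Klf5, and in Klf5 KD replicates 1 to 3 these 10 stood at -1.17, -0.52 and -1.11. No member was called by edgeR. DESeq2 called 4, namely Klf5, Klf11, Klf10 and Klf3, where it called 0.327% of all genes lower.

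Promoter windows of 3 KLF genes, lower ones and one that was not, are printed to show the sequence that KLF-type zinc fingers read. Each window runs from 250 bases before to 50 bases after the RefSeq transcript start (GRCm38.p6, gene strand, 5′ to 3′). Capitals mark every match to the GC or CACCC-like box CCNCNCCC or, on the other strand, GGGNGNGG, and overlapping matches run together. Klf3 (chr5:64803271-64803570, plus strand) held 10 matches, Klf11 (chr12:24651121-24651420, plus strand) 5 and Klf4 (chr4:55532426-55532725, minus strand), which was not lower, 9.
Klf3: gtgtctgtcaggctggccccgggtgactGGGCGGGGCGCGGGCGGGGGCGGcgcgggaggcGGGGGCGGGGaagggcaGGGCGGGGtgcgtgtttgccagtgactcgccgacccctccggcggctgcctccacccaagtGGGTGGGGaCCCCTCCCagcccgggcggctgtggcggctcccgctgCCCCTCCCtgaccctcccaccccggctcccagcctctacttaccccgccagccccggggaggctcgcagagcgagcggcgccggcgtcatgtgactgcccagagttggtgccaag
Klf11: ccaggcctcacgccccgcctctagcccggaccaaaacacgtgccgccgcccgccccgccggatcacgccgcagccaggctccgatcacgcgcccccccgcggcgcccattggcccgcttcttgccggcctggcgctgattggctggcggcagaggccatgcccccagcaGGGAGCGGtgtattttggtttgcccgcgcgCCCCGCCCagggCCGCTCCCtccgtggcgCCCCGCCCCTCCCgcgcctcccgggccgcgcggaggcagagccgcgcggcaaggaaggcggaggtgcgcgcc
Klf4: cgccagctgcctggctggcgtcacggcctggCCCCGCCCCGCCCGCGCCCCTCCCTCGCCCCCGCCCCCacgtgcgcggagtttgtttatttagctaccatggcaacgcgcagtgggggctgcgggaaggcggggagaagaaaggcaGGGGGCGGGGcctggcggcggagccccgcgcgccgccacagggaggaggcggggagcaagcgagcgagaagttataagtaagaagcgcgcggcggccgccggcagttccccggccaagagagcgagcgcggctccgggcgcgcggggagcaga

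Klf11 (chr12:24651274-24662789) was at 14.1 and 14.6 CPM in control and 3.41, 3.42 and 1.90 CPM in Klf5 KD (-2.27 ± 0.40, edgeR adjusted p = 0.127). Klf10 (chr15:38291463-38300706), its closest relative in the family, was at 14.8 and 22.4 against 7.54, 4.48 and 4.39 CPM (-1.74 ± 0.39, adjusted p = 0.228). Klf3 (chr5:64803388-64832901) was at 38.4 and 33.5 against 11.1, 9.78 and 13.5 CPM (-1.64 ± 0.30, adjusted p = 0.127). For these 3 repressor-type members the highest knockdown pool was still well below the lowest control.

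Klf8, a member that also binds the CtBP corepressor, was at 66.8 and 73.6 CPM in control and 11.0, 33.5 and 33.7 CPM in Klf5 KD (-1.44 ± 0.39, edgeR adjusted p = 0.378), with replicate 1 lowest. Klf13 was at 17.4 and 17.8 against 7.81, 10.6 and 7.47 CPM (-1.02 ± 0.34, adjusted p = 0.512). Klf9 was at 103 and 97.2 against 38.0, 78.6 and 68.3 CPM (-0.70 ± 0.31, adjusted p = 0.57). With the mitochondrial share as covariate Klf8 and Klf9 shrank to -0.53 and -0.20, whereas Klf3, Klf10, Klf11 and Klf13 were at -1.51, -2.39, -2.87 and -1.08.

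The 3 members best known beside KLF5 in early embryos and stem cells behaved otherwise. Klf2 was at 147 and 126 CPM in control and 104, 166 and 165 CPM in Klf5 KD (0.08 ± 0.28, edgeR adjusted p = 0.959). Klf4 was at 46.6 and 66.0 against 58.3, 105 and 89.8 CPM (0.58 ± 0.32, adjusted p = 0.627), and Klf17 at 57.9 and 45.4 against 59.0, 78.9 and 53.9 CPM (0.31 ± 0.29, adjusted p = 0.792). In all 3 genes the groups overlapped. Klf16 was low throughout, at 2.27 and 4.02 against 2.60, 2.95 and 1.03 CPM (-0.50 ± 0.63, adjusted p = 0.861). Klf1, Klf6, Klf7, Klf12, Klf14 and Klf15 were not tested, and none exceeded 2.81 CPM in any of the 5 libraries.

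**Figure D4:**
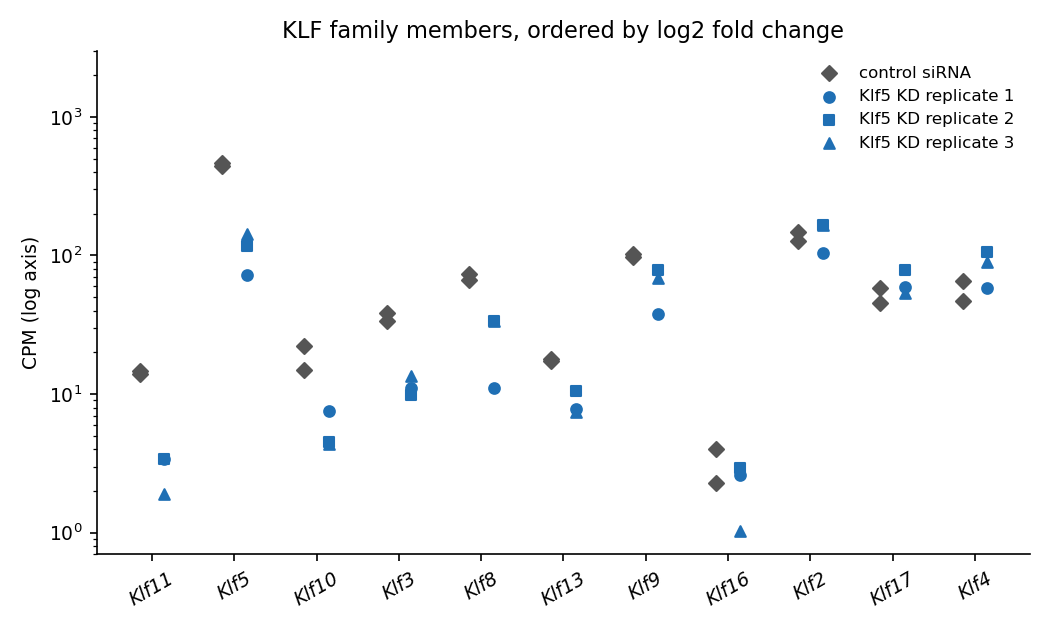
CPM of the 11 tested KLF genes on a log axis, ordered by log2 fold change, with diamonds for the 2 control libraries and circles, squares and triangles for Klf5 KD replicates 1, 2 and 3. The knockdown symbols lie below the diamonds for the 7 genes on the left, from Klf11 to Klf9, and overlap them for Klf16, Klf2, Klf17 and Klf4.

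Per length of exon, as TPM (transcript level per exon length, computed from the counts), Klf5 was the most abundant KLF mRNA in the controls at a mean level of 138 TPM, followed by Klf2 at 117, Klf17 at 34.0, Klf9 at 32.9, Klf4 at 29.3 and Klf8 at 21.4 TPM. Klf5 and Klf2 levels did not overlap between the 2 controls, but Klf17, Klf9 and Klf4 did. Klf10, Klf11, Klf3, Klf13 and Klf16 lay between 7.06 and 1.87 TPM. In Klf5 KD the highest levels were those of Klf2 at 126, Klf4 at 44.8, Klf17 at 43.2 and Klf5 at 34.2 TPM, and the last 3 overlapped. The summed level of all KLF mRNAs was 396 and 399 TPM in control and 207, 359 and 291 TPM in Klf5 KD. Without Klf5 itself it was 263 and 256 against 185, 321 and 250 TPM, and this total overlapped between the groups.

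The box marked in the Klf3, Klf11 and Klf4 promoters was present in 49.5% of all 32851 promoter windows, and in at least 1 window of 14019 of 27025 genes. It was found in 8 of 9 windows of tested KLF genes (88.9%, 7 of 8 genes), in 10 of 18 windows of ranked lower genes (55.6%, 8 of 11 genes) and in 5 of 6 windows of ranked higher genes (83.3%, 5 of 6 genes). Klf2, Klf13 and Klf17 held 4, 5 and 2 matches, Klf8 held 4 over 2 windows and Klf9 held 0. Boxes were thus found in lower members and in others. No window was at hand for Klf5, Klf10 and Klf16, and a role of the boxes was not tested. SP factors bind the same type of box, and of 5 tested SP family members 0 were lower and 0 higher at an unadjusted p under 0.05, with a median of -0.26, or 0.17 with the mitochondrial covariate and -0.036 without Klf5 KD replicate 1. Sp3 was at 140 and 120 CPM in control and 37.5, 93.2 and 109 CPM in Klf5 KD (-0.71 ± 0.37, edgeR adjusted p = 0.617), and Sp1 at -0.26 ± 0.31 overlapped between groups.

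Genes of the early lineages lay on both sides. Of 22 tested TE genes 1 was lower and 2 higher at an unadjusted p under 0.05 (4.67% and 3.8% of all genes), with a median of -0.03. Hand1, a trophoblast transcription factor, was at 43.2 and 49.1 CPM in control and 24.1, 19.1 and 23.9 CPM in Klf5 KD (-1.04 ± 0.28, edgeR adjusted p = 0.378), without overlap. The tight junction genes Cldn6 and Cldn7 were the higher ones, at 1.57 ± 0.51 and 1.28 ± 0.48 (adjusted p = 0.512 and 0.551), but Cldn7 overlapped between groups and turned to -0.35 with the mitochondrial share as covariate. Under that covariate, and without Klf5 KD replicate 1, no TE gene was higher at an unadjusted p under 0.05. By the same measure 1 was lower with the covariate and 2 without that replicate, Hand1 and Lgals3 (-1.25). Of 24 tested pluripotency genes 3 were lower and 1 higher (4.67% and 3.8% of all genes), with a median of -0.05, but without Klf5 KD replicate 1 these counts were 3 and 0 and with the covariate 2 and 0.

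Beside Prdm14, the lower pluripotency genes were Tet2, which oxidises methylated cytosine, at 11.9 and 12.0 CPM in control and 1.62, 3.77 and 8.06 CPM in Klf5 KD (-1.46 ± 0.53, edgeR adjusted p = 0.537), and Tfcp2l1, a naive-state factor, at 34.8 and 25.4 against 16.7, 9.78 and 24.02 CPM (-0.84 ± 0.37, adjusted p = 0.566). Tfcp2l1 was also at -0.70 in dKD against Nr5a2 KD (unadjusted p = 0.0173, edgeR adjusted p = 0.999), again without overlap. Dppa4 was the higher one at 0.66 ± 0.30 (adjusted p = 0.587). Neither Dppa4 nor Tfcp2l1 had an unadjusted p under 0.05 without Klf5 KD replicate 1 or with the mitochondrial covariate, and Tet2 had none with the covariate. Tdgf1, named after its values were seen, was lower in both, at -0.91 and -1.15. Dppa3 and Dppa5a, the most abundant of the list, were at 0.17 and 0.34. Of 10 tested primitive endoderm genes 1 was lower and 2 higher (4.67% and 3.8% of all genes), with a median of 0.32. These were Pdgfra, a receptor of that lineage, at 6.80 and 5.49 against 1.80, 3.42 and 0.879 CPM (-1.57 ± 0.57, adjusted p = 0.537), and, above control, Lrp2 and the endocytic adaptor Dab2 (0.81 ± 0.31, adjusted p = 0.551). Gata6 was at 0.39 ± 0.27 and overlapped. Without Klf5 KD replicate 1, 4 of the 10 were higher at an unadjusted p under 0.05 (377 of all 12838 genes), among them Lrp2, Dab2 and Gata6 at 2.00, 0.61 and 0.55, and with the mitochondrial covariate 3 were higher (300 of all 12838 genes), with a median of 0.58.

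Signalling and polarity genes held several single lower genes. Of 26 tested Hippo and polarity genes 5 were lower and 1 higher at an unadjusted p under 0.05 (4.67% and 3.8% of all genes), with a median of -0.11 that was 0.00 without Klf5 KD replicate 1 and -0.27 without replicate 3. The lower ones were Cdc42ep4, Prkci, an atypical protein kinase C of the apical domain (-1.58 ± 0.48), Mob1a, a cofactor of LATS kinases (-0.82 ± 0.30), and the angiomotins Amotl2 and Amot (-0.96 ± 0.37 and -0.70 ± 0.30), and Stk4, the Hippo kinase MST1, was the higher one (0.72 ± 0.28). With the mitochondrial share as covariate 1 was lower and 2 were higher, and Stk4 was not among the latter. The 9 tested Notch genes had a median of -0.15, which was -0.028 without Klf5 KD replicate 1, 0.067 without control replicate 2 and 0.35 with the covariate. Hes1, a Notch-responsive repressor, was the only one of them with an unadjusted p under 0.05 (4.67% lower and 3.8% higher over all genes). It was at 62.8 and 69.3 CPM in control and 11.2, 16.6 and 34.4 CPM in Klf5 KD (-1.68 ± 0.39, edgeR adjusted p = 0.241), and at -0.79 with the covariate (unadjusted p = 0.0362).

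In the FGF-ERK list, 1 of 25 tested genes was lower and 0 higher at an unadjusted p under 0.05 (4.67% and 3.8% of all genes), with a median of -0.12. With the mitochondrial covariate 0 were lower and 1 higher (428 and 300 of all 12838 genes), with a median of 0.24. Without Klf5 KD replicate 1 each count was 1 (553 and 377 of all 12838 genes). Dusp6 (chr10:99263231-99267489), the phosphatase that limits ERK signalling and is itself an ERK-responsive gene, had 26 and 19 counts in the controls and 0, 0 and 1 in Klf5 KD. Scaled to the depth of the libraries, the ratio of the summed counts was 1.14% of control (95% exact interval 0.0283% to 6.70%, which covers counting error only). EdgeR gave an unadjusted p of 0.000188 and an adjusted p of 0.142. Dusp6 had 285, 311 and 212 counts in Nr5a2 KD and 120, 370, 145 and 293 in dKD, so it was far from 0 in both groups with Nr5a2 siRNA and did not separate them (-0.21 ± 0.38). It was 1 of the 3 genes that DESeq2 called for the difference between the Klf5 siRNA effects, where edgeR gave an adjusted p of 0.479.

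Genes of the oocyte and of the 2-cell stage mark earlier development. Of 45 tested oocyte genes 6 were lower and 1 higher at an unadjusted p under 0.05 (4.67% and 3.8% of all genes), with a median of -0.37, and the medians in Klf5 KD replicates 1 to 3 were -0.80, -0.06 and -0.28. Btg4, an adaptor for maternal mRNA decay, was at 10.7 and 17.8 CPM in control and 4.58, 3.42 and 4.39 CPM in Klf5 KD (-1.78 ± 0.39, edgeR adjusted p = 0.227), and Omt2a at 116 and 178 against 68.7, 51.0 and 62.1 CPM (-1.27 ± 0.29, adjusted p = 0.228). Omt2b, Oas1d and Nlrp4f were at -1.13, -1.71 and -2.38, and Nlrp4e was at 3.54 from levels below 4 CPM. The list's median was -0.02 without control replicate 2. Of 19 tested 2-cell stage genes 0 were lower and 2 higher, with a median of 0.41. When Klf5 KD replicate 1 was left out 1 was lower and 0 higher, with a median of 0.07, and with the mitochondrial covariate 2 were lower and 0 higher, with a median of -0.05. When libraries were scaled to the ERCC spike-in, which put the median of all genes at 0.66, the oocyte and 2-cell medians were 0.23 and 1.15. Those 2 higher genes were Tdpoz2 and Zfp352, and Zfp352 was at 0.605 and 0.535 CPM in control and 2.15, 1.89 and 2.20 CPM in Klf5 KD (1.85 ± 0.80, adjusted p = 0.566). Zfp352 was also at 1.29, 1.79 and 1.38 CPM in Nr5a2 KD and 3.66, 4.24, 4.596 and 3.42 CPM in dKD (1.42 ± 0.43, unadjusted p = 0.00591, edgeR adjusted p = 0.999), so neither comparison overlapped.

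Mitochondrially encoded mRNAs followed the mitochondrial share of the libraries. All 13 were tested and negative, 8 with an unadjusted p under 0.05 (4.67% of all genes), and 12 did not overlap (14.3% of all genes), with a median of -0.71. The medians in Klf5 KD replicates 1 to 3 were -1.35, -0.71 and -0.21, and without replicate 1 the fitted median was -0.45 and 2 were lower. mt-Cytb, a subunit of complex III, was at 55153 and 50762 CPM in control and 17533, 26497 and 50152 CPM in Klf5 KD (-0.76 ± 0.32, edgeR adjusted p = 0.566). Of 68 tested nuclear genes of oxidative phosphorylation 0 were lower and 8 higher (4.67% and 3.8% of all genes), with a median of 0.21 that was 0.06 without replicate 1, and then 1 was lower and 3 higher. Slc25a3, the mitochondrial phosphate carrier, was at 277 and 253 against 884, 636 and 328 CPM (1.23 ± 0.37, adjusted p = 0.464), with the highest value in the library with the lowest mitochondrial share. With that share as covariate 1 of the 68 genes was lower, 0 were higher and Slc25a3 was at 0.14.

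Metabolic lists contained genes on both sides. Of 24 tested glycolysis and lactate genes 3 were lower and 1 higher at an unadjusted p under 0.05 (4.67% and 3.8% of all genes), with a median of 0.24. The median was 0.05 without control replicate 2 and -0.32 with the mitochondrial covariate, where 4 were lower and 0 higher. Ldhb, a lactate dehydrogenase subunit, was at 58.1 and 60.5 CPM in control and 20.9, 33.6 and 15.4 CPM in Klf5 KD (-1.34 ± 0.33, edgeR adjusted p = 0.308), and Mpc1, a subunit of the mitochondrial pyruvate carrier, at 428 and 406 against 291, 229 and 233 CPM (-0.73 ± 0.25, adjusted p = 0.528). Its partner Mpc2 was the higher gene, at 895 and 840 against 1459, 1132 and 1170 CPM (0.54 ± 0.24, adjusted p = 0.568). Mpc1 was also lower in dKD than in Nr5a2 KD (-1.26, unadjusted p = 0.00386, adjusted p = 0.999, no overlap), and Mpc2 was at 0.11 there. Pfkl was below 3 CPM in all 5 libraries.

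Of 22 tested cholesterol synthesis genes 3 were lower and 4 higher (4.67% and 3.8% of all genes), with a median of 0.36 that ran from 0.11 to 0.49 with 1 library left out and was -0.03 with the mitochondrial covariate. Hmgcs1, an early enzyme of the pathway, was at 45.7 and 40.2 CPM in control and 19.0, 28.1 and 29.0 CPM in Klf5 KD (-0.76 ± 0.29, edgeR adjusted p = 0.551), without overlap. Msmo1, Fdft1, Ebp and Fdps had their highest level in replicate 1, such as Ebp at 41.4 and 44.0 against 222, 76.5 and 41.3 CPM, and with the mitochondrial share as covariate none of the 22 genes, Hmgcs1 included, was lower or higher at an unadjusted p under 0.05. Of 41 tested secretory pathway genes 4 were lower and 3 higher (4.67% and 3.8% of all genes), with a median of 0.13, but with the covariate 5 were lower and 0 higher, with a median of 0.00. Gorab, a golgin-associated protein, was at 12.9 and 5.76 against 1.62, 0.825 and 1.46 CPM (-2.80 ± 0.53, adjusted p = 0.139). It stood beside Kdelr3 and Txndc16, which this same comparison had already ranked. Copb2, Sec31a and Sdf2l1 were at 0.87, 1.11 and 1.57.

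Proliferation and stress lists held few such genes in this fit, and apart from the interferon response genes their counts moved under both alternatives. At an unadjusted p under 0.05, 4.67% of all genes were lower and 3.8% higher. Of 44 tested DNA replication genes 0 were lower and 2 higher, Mcm6 of the replicative helicase (0.82 ± 0.28) and Rpa2 (1.21 ± 0.49), with a median of 0.15. Of 31 cell cycle genes Ccnh alone had an unadjusted p under 0.05. None of 21 p53 target genes and none of 6 interferon response genes had one, with medians of -0.03 and 0.30. Of all 12838 genes, 553 were lower and 377 higher without Klf5 KD replicate 1, and 428 and 300 with the mitochondrial covariate. Without Klf5 KD replicate 1, 0 DNA replication genes were lower and 1 was higher (Mcm6), 2 cell cycle genes were lower and 1 higher, and 1 p53 target was lower. With the mitochondrial covariate 1 DNA replication gene was lower and 0 higher, with a median of -0.17, 3 cell cycle genes were lower and 2 higher, and 1 p53 target was lower and 3 were higher, with a median of 0.41. The Y-linked genes, whose summed level depends on how many male embryos a pool holds, were at 48.1 and 36.8 CPM in control and 23.6, 36.9 and 106 CPM in Klf5 KD, so the pools differed in this within the knockdown group, and of the 6 tested 0 were lower or higher, against 3 higher without Klf5 KD replicate 1 and 4 with the covariate. Amhr2 was the only gene of the cumulus and granulosa list that was tested, at 0.39 ± 0.34.

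**Figure D5:**
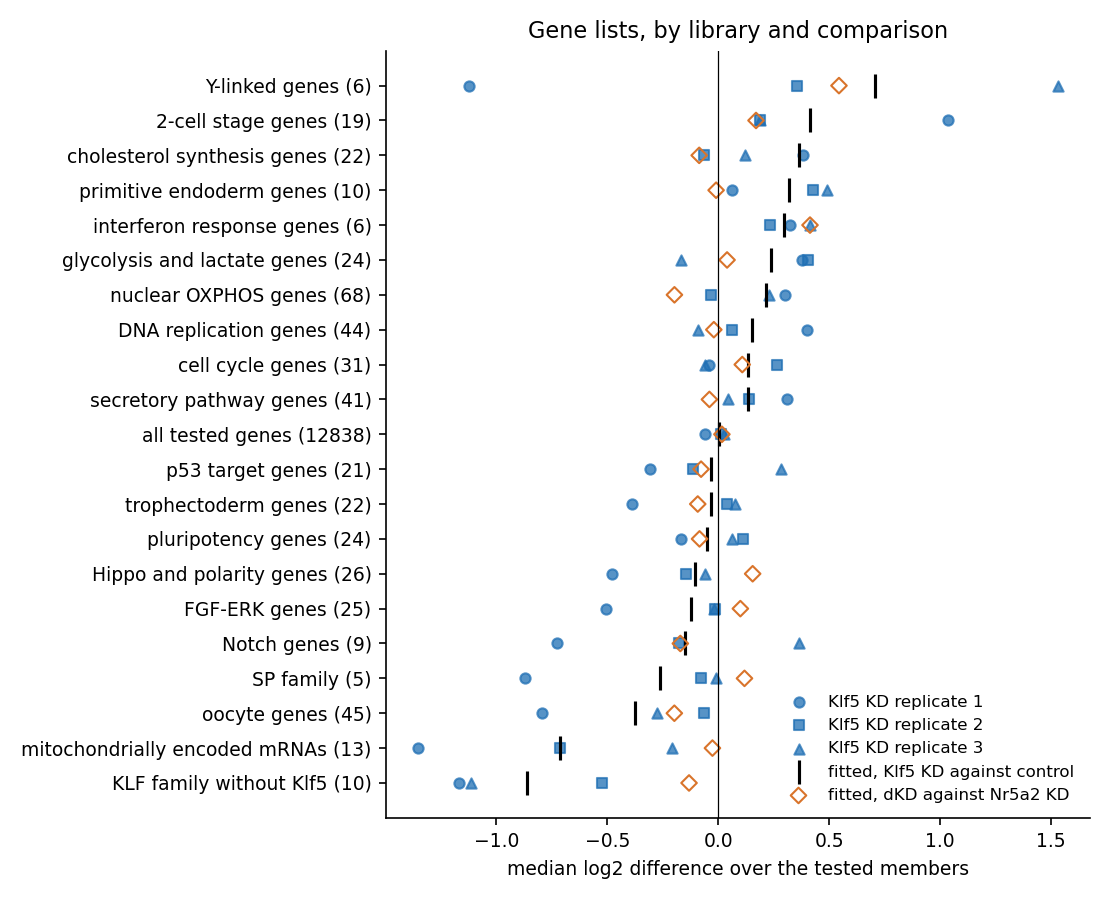
Median log2 difference over the tested members of each list (number of members in brackets). Blue symbols are Klf5 KD replicates 1, 2 and 3 against the control mean, black bars the fitted medians for Klf5 KD against control, and open diamonds those for dKD against Nr5a2 KD, and the KLF family without Klf5 has the lowest fitted median at -0.86, although mitochondrially encoded mRNAs were lower without Klf5 KD replicate 3 (-1.03 against -0.85) and with the replicate block (-1.08 against -0.89).

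In dKD against Nr5a2 KD the median was nearer to 0 than in Klf5 KD against control for 15 of 21 lists and further from 0 for the TE, pluripotency, Notch, Hippo and polarity, p53 and interferon lists. The KLF family stood at -0.22 over 11 tested members, or -0.13 without Klf5. Klf5 was its only member with an unadjusted p under 0.05, where 1.93% of all genes were lower and 1.51% higher. Klf11 was at 8.94, 11.8 and 15.3 CPM in Nr5a2 KD and 5.80, 10.6, 7.54 and 6.48 CPM in dKD (-0.66 ± 0.31, unadjusted p = 0.0553, edgeR adjusted p = 0.999), Klf8 at -0.51 (unadjusted p = 0.0577) and Klf3 at -0.43 (unadjusted p = 0.123). The groups overlapped for all 3. Klf10 was at -0.05. Mitochondrially encoded mRNAs were at -0.03 and nuclear genes of oxidative phosphorylation at -0.20 in this comparison.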

How the data were processed

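RNA-seq was made from pools of 10 embryos with SMART-seq cDNA and Nextera XT libraries. Per the labels and file headers, the authors used Trim Galore (0.6.2), STAR on GRCm38 plus the spike-in and marker sequences, and featureCounts (2.0.1) over exons. What they deposited are estimated counts, not normalized, with a pair split between the genes it overlaps; these were rounded here. Names came from GENCODE M21 (55141 of 55401 genes). EdgeR (4.0.16, filterByExpr at a count of 10 and a sum of 15, TMM, quasi-likelihood test, Benjamini-Hochberg) was the main test over 5 libraries, tested first on simulated data, with DESeq2 (1.42.0) as an alternative. A call needed an adjusted p under 0.05 and 2-fold. CPM used TMM factors over 12 libraries. Ranked genes followed the stated rule, and from each list the members with an unadjusted p under 0.05 (at most 6) and the 2 highest in control could be named, apart from a few genes that are counted but not reported here by name. The members and lists were chosen with earlier results of these data known. Same-numbered Nr5a2 KD and dKD libraries deviated together from their group means (r = 0.13, 0.221 and 0.254 across genes), so the numbers were taken to pair them, with the block as an alternative, although dKD replicate 4, which has no partner, had r = 0.264 with Nr5a2 KD replicate 3, a library of like mitochondrial share. Intervals cover counting error only, because no molecular identifiers were used.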

Additional observations from a re-analysis of the deposited data

Results flagged for a closer look

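In dKD, the group with 4 libraries, 4930522L14Rik was at 26.7 CPM in replicate 1 and at 4.12 to 6.65 CPM in the other 3, so that library stood apart from the rest. Mbl2 was at 3.11 CPM in dKD replicate 2 and at 0 to 0.471 CPM in the other 3. The spread was examined in this way for 32 ranked or KLF genes, and chance marks about 1 in 20.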

How the results depend on the processing

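Against 0 genes lower and 0 higher in Klf5 KD, DESeq2 called 42 and 8, all 12 libraries 6 and 0, no filter 69 and 45, library sizes from the ERCC spike-in 4 (Dusp6, Gng2, Serpinb9b and Gm35248) and 21, and unadjusted p-values with a 2-fold change 385 and 257. Leaving out 1 library gave 0 to 15 lower and 0 to 1 higher genes (Slc25a3), and with 1 control left the lone library is assumed to vary like the others. With the replicate number as a block, which leaves few degrees of freedom and whose numbers do not pair these libraries (correlations of -0.00247 and -0.0208), 146 and 107 were called. For dKD against Nr5a2 KD, lower calls were 4 with DESeq2 (Klf5, Gng2, Parpbp and Apoa1), 1 with the mitochondrial share as covariate (Klf5), 17 without a filter and 0 to 3 with 1 library left out (Rhox5, Mpc1 and 4930506C21Rik without dKD replicate 1), and 3 higher ones came without a filter (Adh1, Nlrp4e and Gm20767). The replicate block changed no call there. The difference between the Klf5 siRNA effects had 3 higher genes with DESeq2 (Dusp6, Olfr832 and CT030661.1) and 3 lower (Ebp, Sergef and Adm) and 12 higher without a filter. These gene names were picked after their values were seen. The log2 fold change of Klf5 passed the threshold with DESeq2 (-2.03), all 12 libraries (-2.03), no filter (-2.002), the replicate block (-2.28) and the unadjusted p (-2.03) and without Klf5 KD replicate 3 (-2.25, adjusted p = 0.0357), ran from -2.25 to -1.81 with 1 library left out, and was smallest at -1.47 with the mitochondrial share as covariate and -1.43 with ERCC library sizes. Klf2 turned to -0.038 under the block and ranged from -0.016 to 0.26 with 1 library left out, and Klf16 turned to 0.27 with ERCC library sizes. Of 143 values for the 8 KLF genes that were not ranked, 5 turned, all of Klf2 or Klf16, and 8 passed the threshold. That scaling moved the median of all genes from 0.00 to 0.66 and the KLF median from -1.02 to -0.33. Of 352 list medians under the alternatives, 315 moved by less than the spread between Klf5 KD libraries and 37 by more, but of 88 counts of lower or higher list members without Klf5 KD replicate 1 or with the mitochondrial covariate, 2 alternatives chosen after seeing the data, 43 moved by over 1.5 times. Of 413 values for the 23 ranked genes other than Klf5 none turned and 101 passed the threshold, the other 312 staying short of it. Since the ranked genes had been chosen for size and separation in these same libraries, turns were unlikely from the start. The causes were not tested. With 3 against 2 libraries the exact test cannot go below p = 0.1, and at the lowest levels, such as Dusp6, a few counts decide a value.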

Other observations

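Gng2, a G protein gamma subunit on chr14:19872559-19977627, was below the 10 CPM limit for ranked genes and was picked after its values were seen. It was at 8.01 and 9.24 CPM in control and 0.718, 0.236 and 1.61 CPM in Klf5 KD (log2 fold change -3.36 ± 0.62, edgeR adjusted p = 0.127, DESeq2 adjusted p = 0.00204). In Nr5a2 KD it was at 21.2, 33.4 and 14.9 CPM and in dKD at 5.17, 9.05, 8.13 and 3.77 CPM (-1.82 ± 0.36, unadjusted p = 0.000253, edgeR adjusted p = 0.999). The groups did not overlap in either comparison. Of the other genes that DESeq2 called in dKD against Nr5a2 KD, Parpbp was at 0.24 in Klf5 KD against control, and Apoa1 was not tested there, at 0.756 and 1.61 CPM in control and 0.898, 0.118 and 0.586 CPM in Klf5 KD, which overlapped.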
